A study of Culex quinquefasciatus with 12 samples.

Results

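The data describe how the transcriptional response of the larval midgut of the mosquito *Culex quinquefasciatus* to the Bin toxin changed between 6 and 12 h of exposure. The 4 arrays of 12 h were set against the 4 arrays of 6 h, which are 8 of the 12 arrays of the series, and every gene with probes on the array (19751 genes) entered the comparison. On each array, RNA from midguts of toxin-treated larvae was labelled with Cy5 and RNA from midguts of untreated larvae of the same time point with Cy3. Each value is therefore a log2 ratio of toxin over untreated, and the comparison is the mean log2 ratio at 12 h minus that at 6 h. Third-instar larvae of the JHB strain were starved for 3 h and then given BinA and BinB in equal molar amounts at 80 ng/ml, a dose that kills most larvae, or no toxin. Each replicate came from 20 larvae, and only larvae still alive at collection were dissected, so the midguts are those of survivors at each time. An array stands for a pool of midguts and not for a single larva.

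Bin is a binary toxin of the bacterium *Lysinibacillus sphaericus*. BinB binds a maltase anchored to the apical membrane of midgut cells, BinA is the toxic partner, and intoxicated cells of the gastric caeca and posterior midgut vacuolate and lose their mitochondrial integrity. The larval midgut secretes proteases, lipases and carbohydrases, takes up their products, and carries much of the detoxification capacity of the larva through cytochrome P450 enzymes and glutathione transferases. The comparison asks which of these functions responded more, less or in the other direction as exposure went on.

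The 4 arrays of a time point share a slide, and each slide holds 1 time point, so time and slide cannot be told apart. The dyes were not swapped on any array. Between 72.8% and 88.5% of the spots of the 8 arrays were well above background in a channel. Pairwise correlations of the log2 ratios over genes lay between 0.691 and 0.882 among the 12 h arrays, between 0.598 and 0.84 among the 6 h arrays, and between 0.445 and 0.721 across the 2 times. Replicate 2 of 12 h and replicate 3 of 6 h carry spots in a very bright local background. Replicate 3 of 18 h, which takes part in the fit, carries such spots too. The number of called genes, the spread of the ratios and the count of cytosolic ribosomal proteins are also given without the first 2 of these arrays. Of the 376 genes called below, 267 were still called then, and the named genes are not marked for this. All 58 midgut marker genes (digestive enzymes, vacuolar ATPase subunits, peritrophins) were well above background in the untreated channel on all 8 arrays, 5 of them saturated. Markers of other tissues were well above background in that channel too. These were all 12 genes of fat body and haemolymph proteins, 7 of muscle, 2 of haemocytes and 3 of neurons. All of these markers were found by name in the study's list of regulated genes, which was drawn from these same arrays. Their detection is thus no independent evidence of which tissues were present. In pooled tissue, fewer cells of a type and less RNA per cell cannot be told apart.

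The log2 ratios spread more widely over genes at 12 h than at 6 h, under the main processing. The log2 ratios of an array had a standard deviation over genes of 0.517 ± 0.0302 at 12 h and 0.42 ± 0.0135 at 6 h (SD, n = 4 arrays each), and the 4 arrays of 12 h all lay above those of 6 h (exact two-sided permutation test, p = 0.0286, the smallest that 4 against 4 arrays allow). The test was not passed with normexp fitted on all spots (exact permutation p = 0.171) or in the deposited ratios (exact p = 0.2). A gene was called at a Benjamini-Hochberg adjusted p under 0.05 in limma and a log2 difference of at least 0.75, or 1.68-fold. Against untreated midguts, 767 genes were higher and 1088 lower at 12 h (3.88% and 5.51% of all genes), and 443 were higher and 633 lower at 6 h (2.24% and 3.2%).

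The response to the toxin differed between 12 h and 6 h for 376 genes, which is 1.9% of those tested. The log2 ratio was higher at 12 h for 179 of them (0.906%) and lower for 197 (0.997%). With each array centred on its median in place of loess normalization, the split was 133 higher and 402 lower, and with the normexp background model fitted on all spots it was 99 higher and 80 lower. Among the 3780 genes that the study lists as regulated at some time, 284 were called (7.51%), 112 of them higher (2.96%) and 172 lower (4.55%); that list was drawn from these same arrays and is no independent evidence. Of the 376, 363 had arrays of 12 h and 6 h that did not overlap, against 20.4% of all genes. The overlap is taken from the same values as the call and adds no support to it. A functional name was at hand for 213, while 71 are hypothetical or predicted proteins and 92 carry no name here.

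The called genes fall into 3 kinds of change. For 190 the response kept its direction and was larger at 12 h: 72 rises and 118 falls. For 34 it kept its direction and was smaller at 12 h: 11 rises and 23 falls. The other 152 had mean ratios of opposite sign, 84 of them positive at 12 h and 68 negative at 12 h. Only 5 of those 152 also passed the test against untreated midguts at both times, and 76 passed at neither. Most of the larger responses were called against untreated midguts at 12 h alone (54 of the 72 rises and 91 of the 118 falls). The median size of the difference was 0.96 on the log2 scale over the 376 genes, and it was similar in all 6 groups (0.87 to 1.00).

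**Figure D1:**
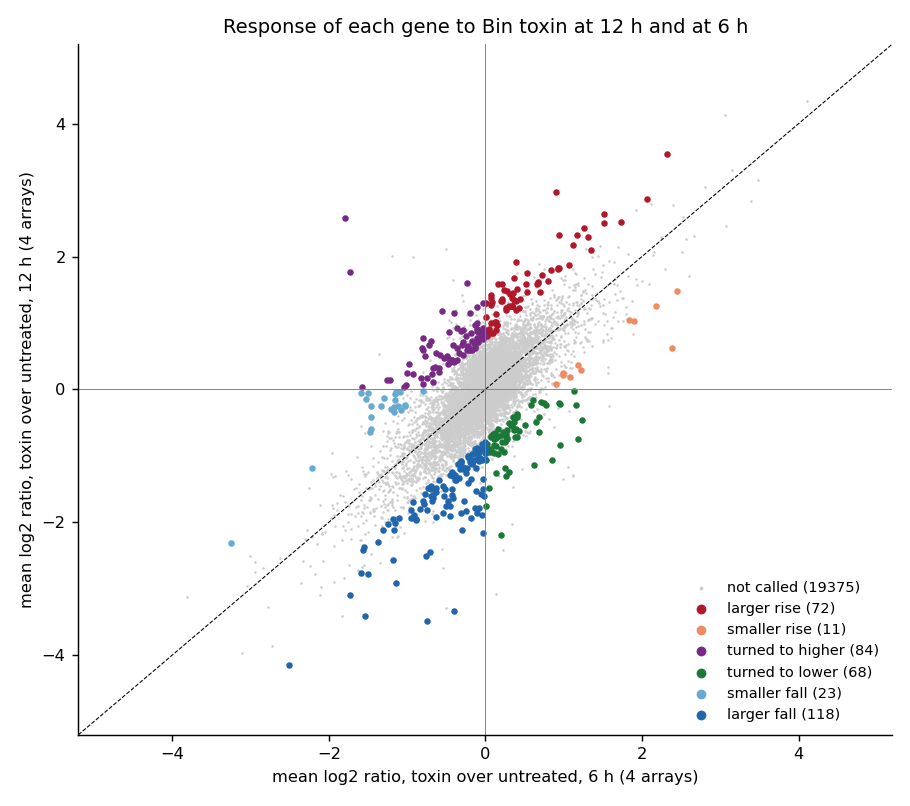
Mean log2 ratio of toxin over untreated at 12 h (vertical axis) against that at 6 h (horizontal axis), 1 point per gene, with the 376 genes called for the difference coloured by the kind of change. The genes of larger falls at 12 h lie far below the diagonal at the bottom, the genes of smaller falls lie above it at the left, and CPIJ005644 is the point of the greatest distance at the upper left.

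The greatest falls at 12 h belonged to a pair of cysteine proteases with neighbouring identifiers. Cathepsin B (CPIJ001239), a protease of lysosomes that also digests protein in insect guts, had log2 ratios of -3.67, -3.49, -3.49 and -2.70 on the 12 h arrays and -1.34, -1.78, 0.34 and 1.198 on the 6 h arrays. The neighbouring cathepsin B-like thiol protease (CPIJ001240) had -3.59, -3.49, -3.80 and -3.07 at 12 h and -1.44, -1.71, -0.42 and 0.57 at 6 h. For both genes the 12 h arrays lay close together, all below the 6 h arrays, while the 6 h arrays spread over more than 2 log2 units, with replicates 1 and 2 low and replicates 3 and 4 near 0 or above. The differences were -2.94 ± 0.61 (SE, adjusted p = 0.011) and -2.74 ± 0.42 (adjusted p = 0.0028). At 18 h the mean ratios were -2.33 and -2.80, nearer to the values at 12 h. Near-identical genes can share hybridization on an array, and the pair may not have been measured independently.

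Fat body and haemolymph proteins also had lower ratios at 12 h in most members, without passing the test, and differed among arrays of 1 time. Over the 12 genes of that list (hexamerins, larval serum proteins, vitellogenin and apolipophorins), the mean log2 ratio was 1.01, -0.73, -2.84 and -1.67 on the 12 h arrays and 1.71, 2.00, -0.39 and -1.68 on the 6 h arrays. Their differences had a median of -1.61, 11 of 12 were below 0, and none passed the test. The summed level of the list, on the log2 scale, ranged from 14.02 to 18.1 in the toxin channel at 12 h and from 13.4 to 17.27 at 6 h. In the untreated channel it ranged from 16.72 to 17.14 at 12 h and from 14.82 to 14.94 at 6 h; time and slide cannot be told apart here. The part of fat body RNA in the falls at 12 h was not tested.

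**Figure D2:**
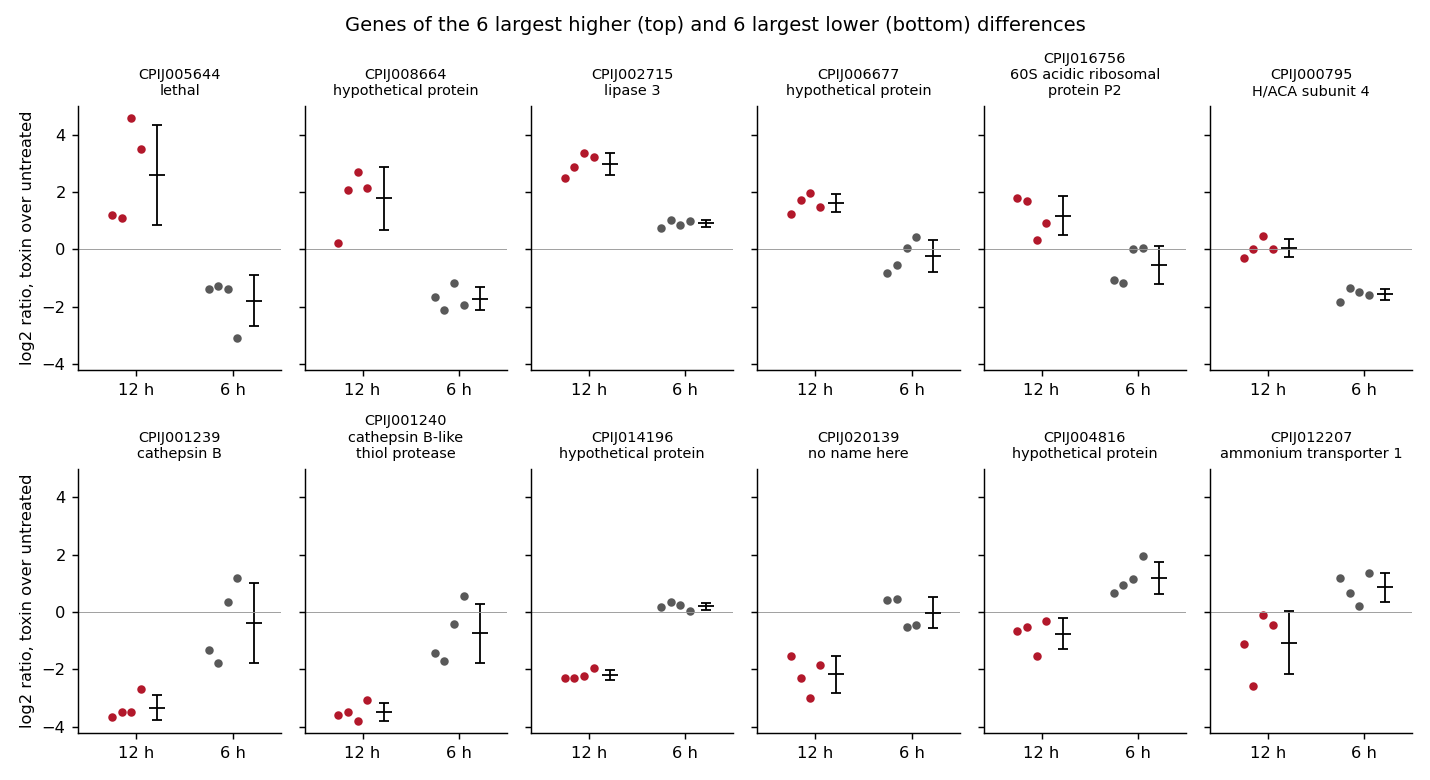
Log2 ratios of toxin over untreated on each array of 12 h and of 6 h for the genes of the largest differences in each direction, with 1 point per array and the mean with its SD beside them. CPIJ014196 shows arrays of each time close together and far apart from those of the other, whereas the cathepsin B pair spreads at 6 h and CPIJ005644 at 12 h.

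Among unnamed genes, CPIJ014196 (conserved hypothetical protein) had the least spread of the large falls. Its log2 ratios were -2.31, -2.29, -2.23 and -1.95 at 12 h and 0.17, 0.34, 0.23 and 0.05 at 6 h, a difference of -2.39 ± 0.11 (adjusted p = 2.9e-06). It stood at 0.15 at 18 h, so this gene was low at 12 h and near 0 at both other times. CPIJ020139, which has no name here, had -1.52, -2.29, -3.005 and -1.86 at 12 h and 0.40, 0.47, -0.53 and -0.46 at 6 h (difference -2.14 ± 0.34, adjusted p = 0.0033), and unlike CPIJ014196 it was still low at 18 h. CPIJ004816 (conserved hypothetical protein) had -0.65, -0.51, -1.55 and -0.31 at 12 h and 0.68, 0.94, 1.16 and 1.97 at 6 h. Its ratio was thus above 0 on every 6 h array and below 0 on every 12 h array (difference -1.94 ± 0.33, adjusted p = 0.0044).

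Single peptidases were lower at 12 h by large amounts. In the list of carboxypeptidases and aminopeptidases, which release single amino acids from the ends of peptides, 5 of 35 genes were lower and 0 higher, and the median difference over the list was -0.15, against -0.0078 over all genes. Shares of lists are read beside the 0.906% of all genes that were higher and the 0.997% that were lower, or the 2.96% and 4.55% of the study's list, from which the names come. Zinc carboxypeptidase (CPIJ009394) had log2 ratios of -1.88, -1.90, -1.89 and -1.90 at 12 h and -0.07, -0.10, -0.04 and 0.03 at 6 h. The arrays lay within a few hundredths of each other at 12 h, and the difference was -1.85 ± 0.12 (adjusted p = 3.8e-05). Zinc carboxypeptidase A 1 (CPIJ011997) had -1.66, -1.44, -1.55 and -1.29 at 12 h and 0.06, 0.12, 0.05 and -0.07 at 6 h (difference -1.53 ± 0.20, adjusted p = 0.0015). At 6 h it was well above background on only 3 of 4 arrays in the toxin channel and 2 of 4 in the untreated channel, so its ratios there come from signals close to background. Carboxypeptidase B (CPIJ010801), which cuts after basic residues, had -1.63, -1.51, -1.40 and -1.48 at 12 h and -0.77, -0.36, -0.16 and -0.41 at 6 h, so that it was already below 0 on every 6 h array. Its difference was -1.08 ± 0.13 (adjusted p = 0.00099), and it was lower still at 18 h (mean -2.19). The number of the list called lower was 8 without 6 h replicate 3, 3 without saturated spots and 0 when normexp was fitted on all spots.

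Of 57 trypsins, chymotrypsins and other serine proteases, 2 were lower (3.51%) and 0 higher (median difference -0.27). That share is no greater than the 4.55% lower in the study's list. Both called genes are of the chymotrypsin type, which cuts after large hydrophobic residues. Chymotrypsinogen (CPIJ002138) had -1.16, -1.79, -2.29 and -1.94 at 12 h and -0.38, -0.10, 0.56 and -0.59 at 6 h (difference -1.66 ± 0.31, adjusted p = 0.007). Chymotrypsin 1 (CPIJ006568) had -1.80, -1.69, -1.65 and -1.57 at 12 h and -0.93, -0.86, -0.46 and -0.47 at 6 h (difference -0.997 ± 0.11, adjusted p = 0.0005). At 18 h these genes parted, with chymotrypsinogen at -2.21 and chymotrypsin 1 at -0.41. No trypsin passed the test. The count of 2 was 5 without 6 h replicate 1 and 4 without 6 h replicate 3.

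Lipases and esterases moved in both directions. Lipase 3 (CPIJ002715), a secreted enzyme that splits fats, was the largest gain among genes already called higher at both times. Its log2 ratios were 2.50, 2.86, 3.35 and 3.20 at 12 h and 0.75, 1.03, 0.85 and 0.97 at 6 h, with no overlap, and the difference was 2.08 ± 0.21 (adjusted p = 0.00032). At 18 h its mean was 1.26, nearer to the value at 6 h. The other 4 called genes of the 40 in the list were lower at 12 h. Bile salt-activated lipase (CPIJ007828), named after the enzyme that digests fats and cholesterol esters in vertebrates, had -0.64, -0.47, -0.77 and -0.98 at 12 h and 0.27, 0.21, 0.22 and 0.81 at 6 h (difference -1.09 ± 0.16, adjusted p = 0.0023). The number of the list called lower was 2 without 12 h replicate 4 and 0 when normexp was fitted on all spots.

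Among 13 carbohydrases, which split starch and sugars, 1 was called lower and 1 higher, 11 differences were above 0 and the median was 0.22. The gene called higher (CPIJ013172, alpha-glucosidase), which these counts include, was saturated in the toxin channel at both times. An unsaturated alpha-glucosidase (CPIJ012204) averaged 1.07 at 12 h and 0.33 at 6 h, a difference of 0.74 just under the minimum (adjusted p = 0.0043). Maltase 1 (CPIJ013170), the enzyme of the family to which the Bin receptor belongs, was saturated in both channels on all 12 h arrays and in the toxin channel on all 6 h arrays, so its ratios have no meaning as a level of response. Alpha-glucosidase (CPIJ008904), which frees glucose from maltose and other sugars, had -1.19, -1.30, -1.17 and -0.79 at 12 h and -0.37, -0.44, -0.04 and 0.17 at 6 h. Its difference of -0.95 was close to the threshold (adjusted p = 0.048), and it lost the call when any of the 8 arrays was left out (adjusted p between 0.0613 and 0.109).

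Cytochrome P450 enzymes, which oxidize toxins, hormones and fatty acids, were the list with the most called falls: 14 of 90 genes were lower and 2 higher (15.6% and 2.22%). The median difference over the list was -0.39, with 67 of 90 genes below 0, and the median log2 ratio was -0.46 at 12 h and -0.02 at 6 h. P450 6A1 (CPIJ005899) had -2.82, -2.77, -2.82 and -2.70 at 12 h and -1.77, -1.94, -1.40 and -0.88 at 6 h. It was lower on every 12 h array (difference -1.28 ± 0.28, adjusted p = 0.014) and stayed at -2.73 at 18 h. P450 6a22 (CPIJ010858) had -0.67, -0.65, -1.47 and -1.06 at 12 h and 0.08, 0.03, 0.13 and 0.21 at 6 h, a change of sign (difference -1.07 ± 0.22, adjusted p = 0.012). The number of the list called lower was 9 without 12 h replicate 3, 3 when normexp was fitted on all spots, and 27 under median centring.

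Not all P450 genes fell. Of the 2 called higher, P450 71B36 (CPIJ016849) was saturated in the toxin channel at both times, so that no size is given. P450 6B7 (CPIJ000298), of the family that insects induce on toxic plant compounds, had 1.27, 1.12, 1.28 and 1.21 at 12 h and 0.51, 0.46, 0.26 and 0.49 at 6 h. The rise was larger at 12 h by 0.79 ± 0.06 (adjusted p = 0.00011), and without 6 h replicate 3 the difference was 0.73, under the minimum of 0.75. P450 4d10 (CPIJ009474) and P450 4d8 (CPIJ007188) were higher than in untreated midguts at 6 h and less so at 12 h. The ratios of P450 4d10 were 0.90, 0.99, 1.30 and 0.97 at 12 h and 1.77, 1.75, 1.97 and 1.84 at 6 h (difference -0.79, adjusted p = 0.00076). Those of P450 4d8 were 0.27, 0.32, 0.20 and 0.10 at 12 h and 1.03, 1.08, 1.09 and 0.77 at 6 h (difference -0.77, adjusted p = 0.0004). Both lie just past the minimum, and P450 4d10 fell short of it without 12 h replicate 1 or 6 h replicate 3 (-0.74 and -0.75), as P450 4d8 did without 12 h replicate 4, 6 h replicate 2 or 6 h replicate 3 (-0.74 to -0.73). At 18 h their means were 0.33 and -0.30.

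Glutathione transferases, which join glutathione to reactive compounds, included 4 falls and 2 rises among 27 genes (median difference -0.41). Of the falls, 3 were theta-class genes with close identifiers. CPIJ018629 had -1.63, -1.99, -2.30 and -1.76 at 12 h and -0.78, -1.23, -0.37 and -0.17 at 6 h (difference -1.28 ± 0.23, adjusted p = 0.0056), and it was below 0 on all 8 arrays. CPIJ018631 had -1.36, -2.12, -0.90 and -0.68 at 12 h and 0.63, -0.06, -0.71 and 0.69 at 6 h, where the arrays overlap at 6 h replicate 3. Its call (difference -1.40, adjusted p = 0.041) was lost in 5 of the 8 fits without 1 array (without 12 h replicate 1 or 2, or 6 h replicate 1, 2 or 4; adjusted p between 0.0655 and 0.0992). CPIJ018632 (difference -1.13, adjusted p = 0.021) lost the call without 12 h replicate 2, 6 h replicate 1 or 6 h replicate 2 (adjusted p between 0.0539 and 0.0573). Glutathione S-transferase theta-2 (CPIJ002679) went the other way: it was the most reduced of the list at 6 h, with -3.61, -3.53, -2.92 and -2.93, and less so at 12 h, with -2.31, -2.46, -2.43 and -2.03. Its difference of 0.94 had an adjusted p of 0.048 and was lost without any 1 of the 8 arrays (adjusted p between 0.0548 and 0.122). Glutathione S-transferase 1-1 (CPIJ002683), the other called rise, had 1.48, 1.51, 2.54 and 1.76 at 12 h and 1.21, 1.0998, 0.78 and 0.64 at 6 h (difference 0.89, adjusted p = 0.028), and it lost the call without 12 h replicate 3 or 4 or 6 h replicate 3 or 4. The count of falls in the list was 2 without 6 h replicate 1 or without 6 h replicate 4.

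Of 6 genes of the study's list named peroxiredoxin, enzymes that reduce peroxides, 2 were called lower and 0 higher; they were looked up after their values were seen. Peroxiredoxin-6 (CPIJ008450), which reduces hydrogen peroxide and lipid peroxides, had -2.16, -2.26, -2.75 and -2.63 at 12 h and -0.95, -1.45, 0.02 and -0.46 at 6 h (difference -1.74 ± 0.33, adjusted p = 0.0075). A second peroxiredoxin 6 gene (CPIJ011296) had -1.97, -2.44, -0.87 and -1.73 at 12 h and -0.55, -0.48, 0.16 and 0.89 at 6 h. The difference of this second gene, -1.76, had an adjusted p of 0.035 and was lost in 5 of the 8 fits without 1 array (12 h replicate 1, 2 or 4, or 6 h replicate 3 or 4; adjusted p between 0.0756 and 0.0906).

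Some genes of fatty acid use, mitochondrial and peroxisomal, were lower at 12 h. Of the 48 genes of fatty acid oxidation and synthesis, 7 were lower and 0 higher (median difference -0.33). Of the 14 mitochondrial carriers, which move metabolites across the inner membrane, 4 were lower and 0 higher, and all 14 differences were below 0 (median -0.46). The carnitine/acylcarnitine carrier (CPIJ019834), which brings fatty acids into the mitochondrion, had -1.44, -1.44, -1.60 and -1.89 at 12 h and -0.61, -0.72, -0.34 and -0.01 at 6 h (difference -1.17 ± 0.15, adjusted p = 0.0014). A second carrier of that name (CPIJ002253) differed by -0.91 (adjusted p = 0.0024), and the 2-oxoglutarate/malate carrier (CPIJ006475), which exchanges these acids, by -0.9997 (adjusted p = 0.0088). The beta subunit of the trifunctional enzyme (CPIJ018065), which carries out the last steps of mitochondrial beta-oxidation, lies outside both lists. It was chosen after its value was seen, and had -1.42, -1.38, -2.04 and -2.18 at 12 h and -0.23, -0.56, -0.79 and -0.44 at 6 h (difference -1.25, adjusted p = 0.0027).

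Of 4 genes named acyl-CoA or acyl-coenzyme A oxidase, looked up after their values were seen, 3 were lower and 0 higher. Acyl-CoA oxidase (CPIJ003061), the first enzyme of beta-oxidation in peroxisomes, had -0.61, -0.68, -1.23 and -0.65 at 12 h and 0.30, 0.34, 0.05 and 0.33 at 6 h. It was above 0 on every 6 h array and below 0 on every 12 h array (difference -1.05 ± 0.18, adjusted p = 0.0047). A second acyl-CoA oxidase (CPIJ003059) had -0.64, -0.56, -0.62 and -0.54 at 12 h and 0.05, 0.19, 0.44 and 0.89 at 6 h, with the same turn (difference -0.98 ± 0.14, adjusted p = 0.0024). At 18 h the means were -0.79 and -0.73, close to those at 12 h. Mitochondrial acyl-coa dehydrogenase (CPIJ016452) was called at an adjusted p of 0.037 and lost the call in 6 of the 8 fits (all but those without 6 h replicate 3 or 4; adjusted p between 0.0503 and 0.0993).

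In the respiratory chain and its assembly, 5 of 13 genes were lower, 0 were higher, and 12 of 13 differences were below 0 (median -0.62). The median log2 ratio of the list was -0.92 at 12 h and -0.50 at 6 h. Electron transfer flavoprotein-ubiquinone oxidoreductase (CPIJ000098), which passes electrons from fatty acid oxidation to ubiquinone, had -1.66, -1.70, -2.06 and -1.80 at 12 h and -0.82, -0.97, -1.03 and -0.53 at 6 h (difference -0.97 ± 0.12, adjusted p = 0.0012). Cytochrome c (CPIJ019024), the electron carrier that also takes part in apoptosis once it leaves the mitochondrion, had -2.89, -2.91, -2.53 and -2.72 at 12 h and -2.18, -2.19, -1.21 and -0.78 at 6 h. It was low at both times, and its difference of -1.17 (adjusted p = 0.033) was lost without 12 h replicate 1, 2 or 4 or 6 h replicate 3 or 4 (adjusted p between 0.0628 and 0.081). The count of 5 is not firm: it was 1 without 12 h replicate 4, 2 without 6 h replicate 1, 1 without 6 h replicate 4, and 0 when normexp was fitted on all spots.

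**Figure D3:**
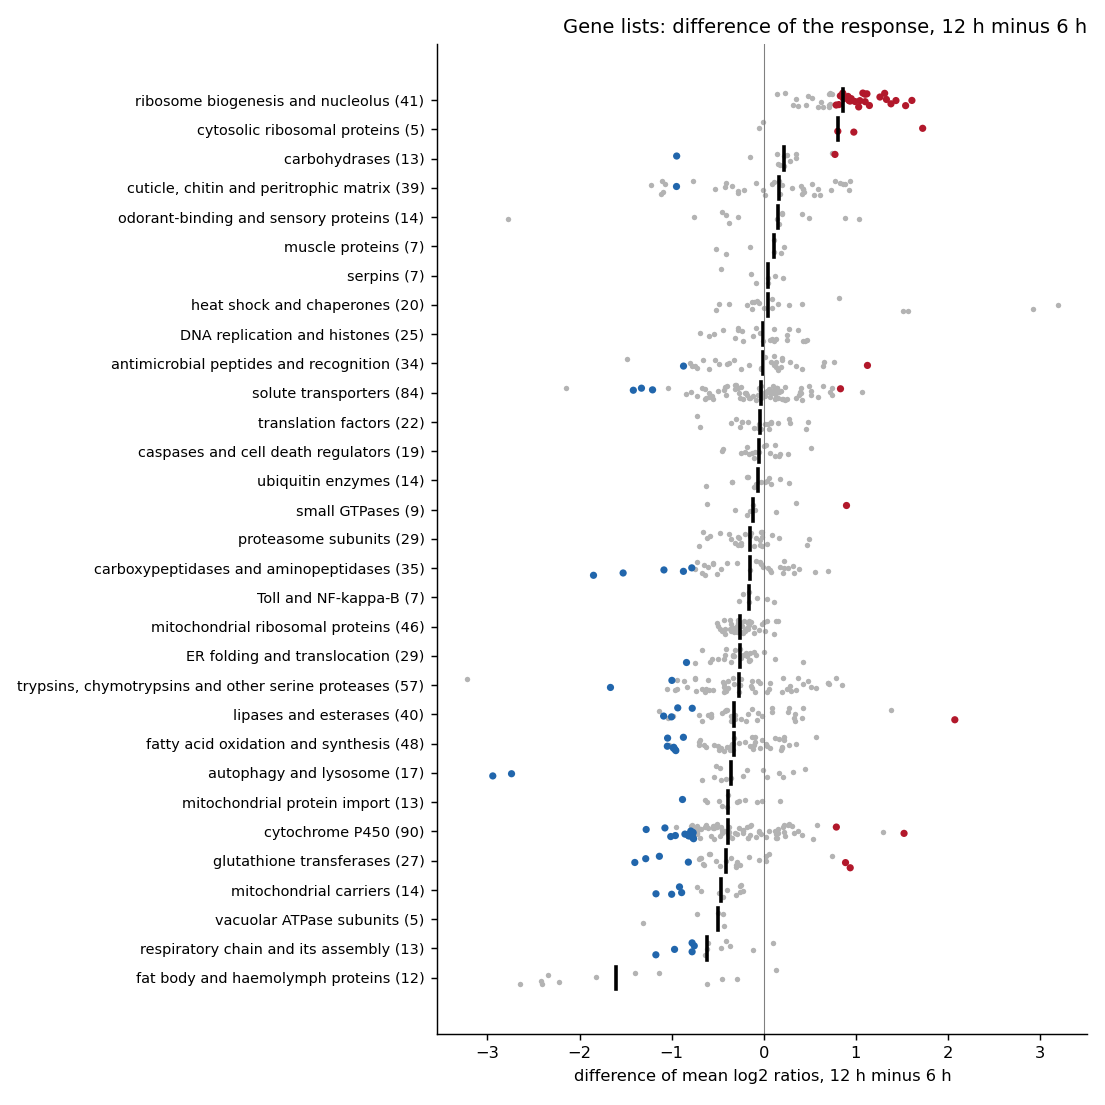
Differences in log2 ratio, 12 h minus 6 h, of the members of each gene list of 5 or more genes, with 1 point per gene, genes called higher in red, genes called lower in blue and a bar at the median. Cytochrome P450 and the mitochondrial carriers lie mostly left of 0, the proteasome and heat shock lists hold no called gene, and the ribosome biogenesis list, chosen after its values were seen, lies wholly right of 0.

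Genes for building ribosomes formed the main group of higher values at 12 h. Ribosomal RNA is made, cut and chemically modified in the nucleolus, where box H/ACA particles convert uridines to pseudouridine and many assembly factors join before the subunits are exported. The list of 41 such genes was gathered after the values had been seen, so its counts are a description and carry no test: 24 were higher at 12 h, 0 were lower, and all 41 differences were above 0 (median 0.86). The list had a median log2 ratio of -0.61 at 6 h, of 0.04 at 12 h and, next, of 0.66 at 18 h. Against untreated midguts, 17 of these genes were called lower at 6 h, while 16 were higher at 12 h and 18 at 18 h, where 2.42% of all genes were higher and 1.79% lower. The median per array was -0.08, 0.07, 0.09 and 0.15 at 12 h and -0.54, -0.63, -0.78 and -0.45 at 6 h. Leaving out 1 array gave 23 to 28 called genes.

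Those 24 genes did not all start from the same place. For 8 of them a fall at 6 h was smaller at 12 h, for 10 a rise was larger at 12 h, and 6 changed sign. The clearest case of a fall that had gone by 12 h was nucleolar protein NHP2 (CPIJ005033), a core protein of the H/ACA particle, with -0.16, -0.05, 0.03 and -0.02 at 12 h and -1.35, -1.62, -1.81 and -1.59 at 6 h (difference 1.54 ± 0.10, adjusted p = 3.8e-05). Its partner H/ACA ribonucleoprotein complex subunit 4 (CPIJ000795), the pseudouridine synthase of the particle, had -0.30, -0.01, 0.45 and 0.01 at 12 h and -1.84, -1.36, -1.48 and -1.61 at 6 h (difference 1.61 ± 0.17, adjusted p = 0.00045). Both particle genes were near the untreated level at 12 h and above it at 18 h, with means of 0.84 and 0.79. Subunit 3 of the particle (CPIJ018833) and a second subunit 4 gene (CPIJ006466) differed by 0.87 and 0.83 (adjusted p = 0.00032 and 0.0015).

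Assembly factors of the large subunit behaved in both ways. mRNA turnover protein 4 (CPIJ008588), whose yeast counterpart helps to build the stalk of the large subunit, had -0.31, -0.14, -0.15 and 0.01 at 12 h and -1.33, -1.47, -1.72 and -1.61 at 6 h (difference 1.38 ± 0.13, adjusted p = 0.00024). Pescadillo (CPIJ004969), which acts with WD repeat protein 12 in maturation of the large subunit, was close to the untreated level at 6 h, with 0.25, 0.10, 0.08 and 0.19, and above it at 12 h, with 1.35, 1.53, 1.91 and 1.57. Its difference was 1.44 ± 0.10 (adjusted p = 3.8e-05). WD repeat protein 12 (CPIJ001500) had -0.08, 0.17, 0.09 and 0.07 at 12 h and -1.02, -1.14, -1.06 and -0.84 at 6 h (difference 1.08 ± 0.12, adjusted p = 0.0005). At 6 h pescadillo was thus near the untreated level and its partner well below it.

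Small-subunit factors were among the larger rises. RNA-binding protein pno1 (CPIJ019677) and RNA-binding protein NOB1 (CPIJ012739), which in yeast act together in the final cut of the small ribosomal RNA, differed by 1.12 ± 0.11 (adjusted p = 0.0003) and 0.99 ± 0.11 (adjusted p = 0.00041). Pno1 had 1.19, 1.07, 1.66 and 1.39 at 12 h and 0.25, 0.12, 0.19 and 0.29 at 6 h. NOB1 had 1.59, 1.49, 2.06 and 1.74 at 12 h and 0.73, 0.73, 0.67 and 0.79 at 6 h, so both were above 0 on all 8 arrays. Proliferating-cell nucleolar antigen p120 (CPIJ010674), a methyltransferase of ribosomal RNA, had 1.57, 1.55, 1.98 and 1.60 at 12 h and 0.68, 0.28, 0.11 and 0.38 at 6 h (difference 1.31 ± 0.14, adjusted p = 0.0004). At 18 h 23 of the 24 called genes of the list were nearer to their 12 h mean than to their 6 h mean. Over all 376 called genes this held for 238.

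**Figure D4:**
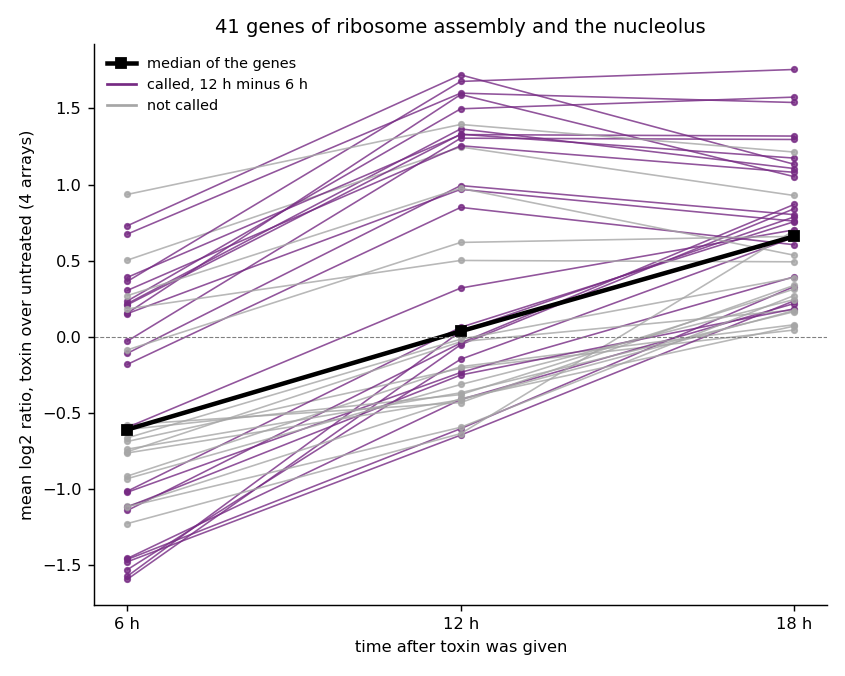
Log2 ratios of toxin over untreated for the 41 genes of the ribosome biogenesis list at 6, 12 and 18 h, with 1 line per gene through the means of 4 arrays at each time, the 24 called genes in purple, the others in grey and the median in black. All lines climb between 6 and 12 h, some out of values well below 0 and some out of values near 0, and at 18 h all lie above 0.

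Of 5 cytosolic ribosomal protein genes in the study's list, 3 were higher at 12 h and 0 lower, and 1 was higher without both arrays of very bright background. 60S ribosomal protein L5 (CPIJ010112), which carries 5S ribosomal RNA into the large subunit, had 1.19, 1.23, 1.70 and 1.25 at 12 h and 0.37, 0.44, 0.31 and 0.33 at 6 h (difference 0.98 ± 0.10, adjusted p = 0.0003). 60S ribosomal protein L7 (CPIJ012743) differed by 0.80 (adjusted p = 0.008) and fell under the minimum without 12 h replicate 3, 6 h replicate 3 or 6 h replicate 4 (0.70 to 0.74). 60S acidic ribosomal protein P2 (CPIJ016756), a part of the stalk that binds elongation factors, had 1.77, 1.69, 0.31 and 0.93 at 12 h and -1.07, -1.17, -0.01 and 0.04 at 6 h. At each time replicates 1 and 2 stood apart from replicates 3 and 4, and the difference of 1.73 ± 0.47 (adjusted p = 0.036) was lost without 12 h replicate 1, 2 or 4 or 6 h replicate 1 or 2 (adjusted p between 0.0692 and 0.0913). The 46 mitochondrial ribosomal proteins and 22 translation factors held 0 called genes. The mitochondrial ribosomal proteins had a median log2 ratio of -0.84 at 12 h and -0.53 at 6 h.

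The greatest change of all was a turn from low to high in CPIJ005644, listed under the name lethal. Its log2 ratios were 1.19, 1.08, 4.58 and 3.49 at 12 h and -1.39, -1.27, -1.40 and -3.10 at 6 h, and the difference was 4.37 ± 0.85 (adjusted p = 0.0087). It was called in both directions, high at 12 h and low at 6 h, and was below 0 again at 18 h (mean -1.52). The 12 h arrays fall in pairs, with replicates 3 and 4 more than 2 log2 units above replicates 1 and 2. Small heat shock genes with adjoining identifiers, whose proteins keep damaged proteins from aggregating, showed the same pairs. Heat shock protein 27 (CPIJ005642) had -0.08, 0.10, 4.57 and 3.43 at 12 h and -1.85, -0.68, -0.92 and -1.31 at 6 h, and its difference of 3.19 did not pass (adjusted p = 0.076). Heat shock protein 22 (CPIJ005645) had -0.17, 0.21, 4.57 and 3.38 at 12 h and -1.79, -0.27, -0.48 and -1.16 at 6 h (difference 2.92, adjusted p = 0.10).

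The same pairs of 12 h arrays appeared in large chaperones of the Hsp70 class, chosen after their values were seen. Hsp70 B2 genes CPIJ011081 and CPIJ011082 had -0.61, -0.51, 3.47 and 2.40, and -0.88, -1.07, 3.47 and 2.67, on the 12 h arrays. Replicates 3 and 4 of 12 h were thus high for these stress-inducible chaperones while replicates 1 and 2 were not. What set the arrays apart was not tested. The medians of the whole heat shock and chaperone list did not show the pairs, at -0.84, -1.03, -0.88 and -0.72 on the 12 h arrays. In all, 0 of 20 heat shock and chaperone genes passed the test of the difference. Their median log2 ratio was -0.87 at 12 h and -0.93 at 6 h, and 11 were called lower than untreated at 12 h and 9 at 6 h.

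CPIJ008664, a conserved hypothetical protein, also turned from low to high. It had 0.20, 2.07, 2.70 and 2.12 at 12 h and -1.65, -2.13, -1.19 and -1.93 at 6 h (difference 3.50 ± 0.55, adjusted p = 0.0032), and unlike CPIJ005644 it was still high at 18 h (1.83, 1.28, 0.74 and 2.95). CPIJ006677, another hypothetical protein, had 1.25, 1.73, 1.98 and 1.48 at 12 h and -0.83, -0.56, 0.03 and 0.43 at 6 h (difference 1.84 ± 0.27, adjusted p = 0.0023). In the other direction, ammonium transporter 1 (CPIJ012207), a membrane channel for ammonia, had -1.13, -2.59, -0.09 and -0.46 at 12 h and 1.18, 0.66, 0.22 and 1.36 at 6 h. The 12 h arrays of the transporter spread over more than 2 log2 units, and the difference of -1.92 ± 0.48 (adjusted p = 0.025) was lost without 12 h replicate 1, 6 h replicate 1 or 6 h replicate 4 (adjusted p between 0.0551 and 0.0642).

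Early rises that were smaller at 12 h numbered 11, of which 4 were in the study's metabolism group and 2 were the P450 4d genes above. Phosphatidylcholine-sterol acyltransferase (CPIJ010979), which in vertebrates transfers an acyl chain from a phospholipid to cholesterol, had 0.68, 0.57, 0.78 and 0.45 at 12 h and 2.19, 2.64, 2.60 and 2.12 at 6 h (difference -1.76 ± 0.14, adjusted p = 9.7e-05). It was below 0 by 18 h, on all 4 arrays. A pair of genes named AMP dependent coa ligase, enzymes that activate acids by joining them to coenzyme A, shrank together. CPIJ000424 had 1.18, 1.23, 2.05 and 1.50 at 12 h and 2.30, 2.52, 2.50 and 2.48 at 6 h (difference -0.96, adjusted p = 0.0064), and CPIJ000427 differed by -0.93 (adjusted p = 0.0098). All 11 had an 18 h mean nearer to the 12 h mean than to the 6 h mean. Of the 23 smaller falls, 22 did, against 39 of the 72 larger rises and 55 of the 118 larger falls. Over all 376 called genes this held for 238. In the smaller responses the 12 h mean lies nearer to 0 by definition, so an 18 h mean near 0 counts as nearer to it.

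Several functions had low ratios at both times and few or no calls for the difference. Of 29 proteasome subunits, 0 passed the test, 24 differences were below 0 (median -0.14), with a median log2 ratio of -1.01 at 12 h and -0.85 at 6 h, and 23 were called lower than untreated at 12 h and 17 at 6 h. Of 29 genes of folding and translocation in the endoplasmic reticulum, 1 was called lower (mannose-P-dolichol utilization defect 1 protein, CPIJ001740, difference -0.85, and -0.73 without 12 h replicate 4 or 6 h replicate 4), with a median of -1.15 at 12 h and -0.82 at 6 h. In that list 26 of 29 differences were below 0 (median -0.26), and the medians per array were -1.22, -1.14, -1.22 and -1.11 at 12 h and -0.92, -0.92, -0.87 and -0.58 at 6 h. The 25 genes of DNA replication and histones held 0 calls (medians -0.74 and -0.66). In immunity and cell death, the 7 Toll and NF-kappa-B genes, the 7 serpins and the 19 caspases and cell death regulators held 0 calls each, and the caspase list had medians of 0.20 at 12 h and 0.16 at 6 h. A list without calls shows only that no member passed at 4 arrays against 4. Over all genes, 5860 had an unadjusted p under 0.05 and 2513 an adjusted p under 0.05 before the minimum size was applied.

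Few transporters that take up nutrients passed the test: of 84 solute transporters, 3 were lower and 1 higher (median difference -0.03), and 5 were lower without 6 h replicate 3. Sugar transporter CPIJ008941 had -1.24, -1.68, -1.92 and -1.29 at 12 h and -0.52, -0.14, -0.27 and 0.46 at 6 h (difference -1.42 ± 0.24, adjusted p = 0.0045). Its neighbour CPIJ008943 changed sign (difference -1.33, adjusted p = 0.019) and lost the call without 12 h replicate 2 or 4 or 6 h replicate 1 (adjusted p between 0.0503 and 0.0532). The sodium/solute symporter CPIJ001859 differed by -1.21 (adjusted p = 0.019). The gene that was higher, a sodium/chloride dependent amino acid transporter (CPIJ003267), had 1.86, 1.65, 1.45 and 1.55 at 12 h and 1.27, 0.90, 0.49 and 0.53 at 6 h (difference 0.83, adjusted p = 0.017). In further lists, 1 of 39 cuticle, chitin and peritrophic matrix genes was lower (chitinase CPIJ013082, which degrades chitin, difference -0.95 ± 0.16, adjusted p = 0.0047). Of 13 genes of mitochondrial protein import, 1 was lower (import receptor subunit tom20, CPIJ007967, difference -0.89, and -0.74 without 6 h replicate 4). Of 9 small GTPases, 1 was higher (CDC42 homolog CPIJ014902, a regulator of actin and cell polarity, difference 0.89 ± 0.16, adjusted p = 0.0053). The 5 vacuolar ATPase subunits, 14 ubiquitin enzymes and 14 odorant-binding and sensory proteins held 0 calls. Of 17 genes of autophagy and the lysosome, the cathepsin B pair alone was called.

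Of 34 genes of antimicrobial peptides and recognition, 1 was higher and 1 lower (2.94% each), shares no greater than the 2.96% and 4.55% of the study's list. Gram negative bacteria binding protein 2 (CPIJ004229), of a family of secreted proteins that bind microbial glucans, lies outside that list and was chosen after its value was seen. It had -2.04, -1.91, -1.90 and -1.79 at 12 h and -0.69, -0.44, -0.29 and -0.39 at 6 h (difference -1.46 ± 0.10, adjusted p = 4.2e-05). Gram-negative bacteria-binding protein 1 (CPIJ004320), the gene of the list that was lower, differed by -0.87 (adjusted p = 0.024), with the call lost without 12 h replicate 3 or 4 or 6 h replicate 2 or 4. Lysozyme c-4 (CPIJ010731), the gene that was higher, which cuts bacterial cell walls, had 2.17, 1.71, 0.50 and 0.95 at 12 h and 0.36, 0.35, 0.11 and -0.004 at 6 h. Its difference of 1.13 (adjusted p = 0.033) was lost in 6 of the 8 fits without 1 array (without 12 h replicate 1 or 2 or any 6 h array; adjusted p between 0.0552 and 0.0856).

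The levels in each channel describe how the ratios of the called genes differed between the slides. The counts were taken over called genes only. Without the share over all genes, they do not show that called genes differ from the rest. For 255 of the 376 called genes the untreated channel differed more between the 12 h and 6 h slides than the toxin channel did, and for 121 the toxin channel differed more. Among the 118 larger falls, the untreated channel changed more for 89, with a median level 0.72 higher at 12 h, against a median of -0.28 in the toxin channel. Zinc carboxypeptidase CPIJ009394 is such a gene: its level at 12 h minus that at 6 h was 0.09 in the toxin channel and 1.94 in the untreated channel. P450 6A1 (CPIJ005899) had -0.01 and 1.27, and the cathepsin B-like gene CPIJ001240 had -0.19 and 2.54. In these genes the toxin channel stood at nearly the same level on both slides while the untreated one was higher on the 12 h slide. Chymotrypsin 1 (CPIJ006568) was different, with -1.17 in the toxin channel and -0.17 in the untreated channel.

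Rises showed both patterns as well: of the 72 larger rises, the toxin channel changed more for 34 and the untreated channel for 38. The level of lipase 3 (CPIJ002715) at 12 h minus that at 6 h was 0.72 in the toxin channel and -1.35 in the untreated channel, and that of NHP2 (CPIJ005033) was 0.38 and -1.16. Of the 24 called genes of ribosome assembly, 17 changed more in the untreated channel. The levels were compared across slides after quantile scaling of the brightness of the arrays and carry no test, since the untreated larvae were also older by 6 h on the later slide and slide and time cannot be told apart.

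**Figure D5:**
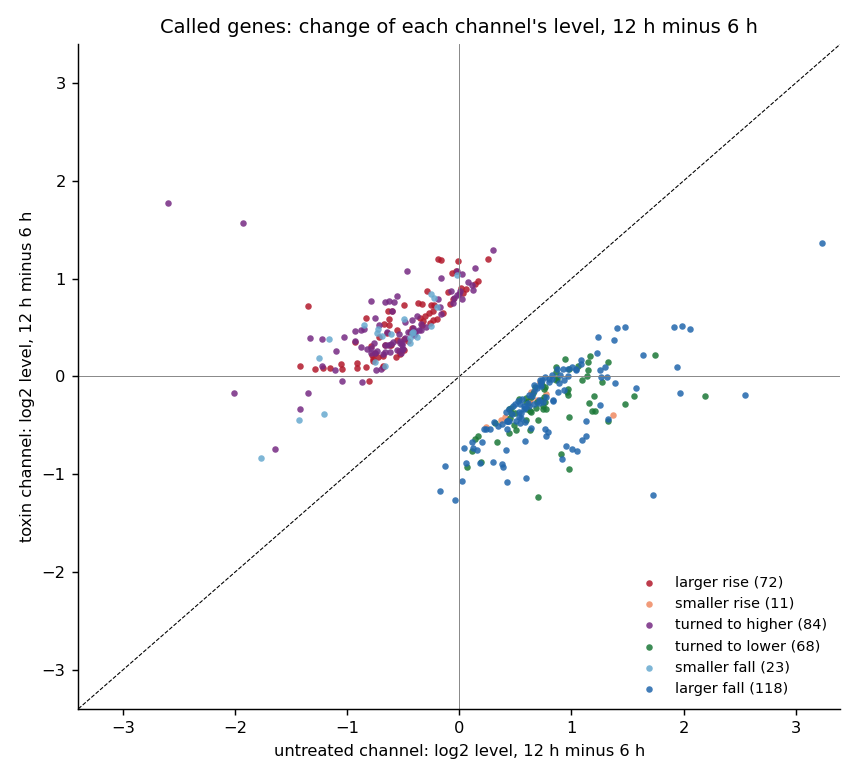
Change of level between the slides, 12 h minus 6 h, in the toxin channel (vertical axis) against the untreated channel (horizontal axis), both in log2 units, for the 376 called genes, coloured by the kind of change. Most points lie farther from 0 along the untreated axis than along the toxin axis, and the larger falls lie mainly right of 0.

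The midgut markers include digestive enzyme and vacuolar ATPase genes of the lists above, so they are not a separate set. These markers moved a little in the same direction as the falls. Their mean log2 ratio was between -0.43 and -0.35 on the 12 h arrays and between -0.11 and 0.03 on the 6 h arrays, 43 of 58 differences were below 0 (median -0.43), and 4 markers were called lower and 1 higher. Muscle and neuronal genes had median differences of 0.11 and 0.10, and the 2 haemocyte genes -0.49, with 0 calls among them. Whether a change in the cell make-up of the dissected tissue took part in these differences was not tested.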

How the data were processed

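RNA of larval midguts was measured on 12 Agilent arrays of 2 colours, 4 for each time point, of which the 8 of 12 h and 6 h were compared; the 18 h arrays took part in the fit. The deposited intensity values, per the file headers, hold median signals of spots and local backgrounds, which the authors obtained with Agilent Feature Extraction 11.5.1.1 and left unnormalized. The deposited scanner output also gives log10 ratios of dye-normalized Cy5 over Cy3. The log2 values that the authors deposited are background-corrected, loess-normalized ratios, made with limma. Background correction and loess move small ratios most, and both were varied. Of 45220 spots, 1417 are controls.

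The signals were corrected with normexp (offset 50), refitted without spots marked for uneven local background, which were left out. Log2 ratios were normalized by loess within arrays, and the 2 to 6 spots of each gene were averaged. The means of the time points were estimated jointly from all 12 arrays by lmFit and eBayes (limma 3.58.1, R 4.3.3; 9 residual degrees of freedom), and p-values were adjusted over 19751 genes by the Benjamini-Hochberg method. Levels per channel were scaled with Aquantile. In a test on simulated data, 48 of 50, 48 of 50, 49 of 50 and 49 of 50 differences of 1, 1.5, 2 and 3 log2 units were recovered among the genes of the 12 h against 6 h contrast, with 1 false call. The simulated noise was drawn separately for each gene, with no slide effect and no array set apart. The recovery thus does not cover such effects in the data. The number of arrays limits the precision.

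Alternatives were other background corrections (fitted on all spots, plain subtraction, none), median centring, scale normalization, the scanner's and the deposited ratios, dim or saturated spots left out, the brightest probe, the 8 arrays alone, arrays left out, the replicate number as a block and no minimum size. Gene names and the lists come from keyword searches in the study's list of regulated genes, since 0 identifiers matched the reference table. The members and lists were chosen with earlier results of these data known, and the ribosome biogenesis list after its values were seen. Named by rule, among called genes with arrays that do not overlap, signal well above background and no saturation, are the 6 largest differences in each direction and the 3 largest of each kind of change; without those filters, up to 3 members of each list with calls are named too. Genes beyond that rule were chosen after their values were seen: CPIJ013170, CPIJ000298, CPIJ009474, CPIJ007188, CPIJ002679, CPIJ002683, CPIJ003267, CPIJ008450, CPIJ011296, CPIJ018065, CPIJ018833, CPIJ006466, CPIJ001500, CPIJ019677, CPIJ012739, CPIJ010674, CPIJ004229, the heat shock genes, and the genes of the closing observations. Quantitative PCR values were not analysed.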

Additional observations from a re-analysis of the deposited data

Results flagged for a closer look

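The response to the toxin differed between 12 h and 6 h for 376 genes by the test of the difference itself, and these are the genes described above.

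Among 136 groups of 4 arrays examined for the genes named by rule, 7 held 1 array far from the other 3. Chance flags about 1 in 20 groups, so 7 is about as many as chance would give. The flagged groups are listed as values only. For CPIJ005644, 6 h replicate 4 stood at -3.10, against -1.40 to -1.27 on the other arrays of 6 h. CPIJ010699, an antimicrobial peptide gene listed as cecropin A and not called for the difference, was at 3.92 on 6 h replicate 2 and between -1.37 and -0.92 on the other 3. For CPIJ004778, 12 h replicate 1 was at -1.79, against -2.50 to -2.38. 60S ribosomal protein L5 (CPIJ010112) was at 1.70 on 12 h replicate 3, against 1.19 to 1.25. Bile salt-activated lipase (CPIJ007828) was at 0.81 on 6 h replicate 4, against 0.21 to 0.27. Acyl-CoA oxidase (CPIJ003061) stood apart at both times on replicate 3, at -1.23 at 12 h, against -0.68 to -0.61, and at 0.052 at 6 h, against 0.30 to 0.34.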

How the results depend on the processing

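The direction of all 376 called differences was the same under every alternative that measured them. Of these, 370 were present once dim probes and 368 once saturated spots were left out. The genes were chosen for a large difference on these same arrays, so the shared direction is no independent evidence. Of the 376, 46.5% kept the call with normexp fitted on all spots and 52.4% in the deposited ratios. The number of calls moved with the background correction. With normexp fitted on all spots, 99 genes were higher and 80 lower, with 90 larger, 10 smaller and 79 turned responses, and 97.8% of these 179 are among the 376. The deposited ratios gave 102 higher and 96 lower, with 96 larger, 14 smaller and 88 turned. Plain subtraction gave 285 higher, 316 lower and 276 turned. Median centring gave 402 lower and 232 turned, scale normalization 120 larger, and the scanner's ratio 342 higher, 309 larger and 284 turned, with 3290 genes called at 12 h and 1641 at 6 h. With no minimum size, 997 were higher and 1516 lower, with 1133 larger, 278 smaller and 1102 turned. The cause of these shifts was not tested, other than that the last has no size limit.

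The wider spread at 12 h was 0.0978 with normexp on all spots (exact permutation p = 0.171), 0.109 in the deposited ratios (exact p = 0.2) and 0.104 without the 2 arrays of very bright background (exact p = 0.1, the smallest that 3 against 3 arrays allow). Leaving out 1 array gave 145 to 198 genes higher and 151 to 226 lower; 215 of the 376 were called in all 8 such fits, and 161 lost the call in at least 1. Without both bright arrays, 340 were called, 267 of them shared.

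The replicate numbers did not pair the arrays 1 to 1: same-numbered deviations correlated at 0.394, 0.0787, 0.137 and 0.112. The 6 h arrays that correlated best with 12 h replicates 1, 2, 3 and 4 were replicates 1, 1, 4 and 3. Best partners thus lay within replicates 1 and 2 or within replicates 3 and 4, a structure that both times share. What lies behind it was not tested. With the replicate number as a block, 411 genes were called (187 higher and 224 lower), 361 of them shared.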

Other observations

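Some further groups of called genes, chosen after their values were seen, belong to no list. Of 13 genes of the study's list named synaptic vesicle protein or glycoprotein, membrane proteins related to sugar transporters, 5 were lower and 0 higher, against 4.55% lower in that whole list and 0.997% over all genes. Since the name was picked for its values, the count carries no test. Synaptic vesicle glycoprotein 2A (CPIJ017596) had log2 ratios of -2.82, -2.86, -3.07 and -2.88 at 12 h and -1.10, -1.25, -0.99 and -1.24 at 6 h (difference -1.76 ± 0.08, adjusted p = 2.1e-06). It was back near the untreated level at 18 h (mean -0.11). Synaptic vesicle protein CPIJ017566 had -1.63, -1.75, -1.96 and -1.78 at 12 h and -0.09, 0.14, -0.11 and -0.28 at 6 h (difference -1.70 ± 0.12, adjusted p = 3.8e-05). The other 3 (CPIJ014102, CPIJ001773 and CPIJ001774) differed by -1.43, -1.18 and -0.999 (adjusted p = 0.0093, 0.015 and 0.021), and CPIJ001774 lost the call without 12 h replicate 2 or 6 h replicate 4 (adjusted p = 0.0565 and 0.0509).

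Of 6 genes named juvenile hormone esterase or epoxide hydrolase, enzymes that break down the hormone that keeps larvae in the larval state, 2 were lower and 0 higher. Juvenile hormone esterase (CPIJ002073) had -1.69, -1.64, -1.83 and -2.29 at 12 h and -0.70, -0.49, -0.05 and 0.83 at 6 h (difference -1.76 ± 0.29, adjusted p = 0.0039). Juvenile hormone epoxide hydrolase 1 (CPIJ000992) averaged -1.64 at 12 h and -0.42 at 6 h (difference -1.23 ± 0.28, adjusted p = 0.018). A tryptophan transporter (CPIJ012065) was high at 12 h, with 2.99, 2.35, 1.82 and 2.58, less so at 6 h, with 0.79, 1.43, 1.27 and 1.54, and below 0 at 18 h (difference 1.18 ± 0.25, adjusted p = 0.013).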
